A study of Mus musculus with 23 samples.

Results

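Cells take up glucose, fructose and lactate through membrane carriers, and the messenger RNA of 10 genes of such carrier families was followed here in the hippocampus of mouse pups with anemia. The genes were Slc2a1, Slc2a3, Slc2a4, Slc2a5, Slc2a6, Slc2a8 and Slc2a13 of the facilitative sugar transporter family (GLUT proteins, named by a number) and Slc16a1, Slc16a3 and Slc16a7 of the monocarboxylate transporter family (MCT proteins). They were found by symbol among the 24421 rows of the deposited count table. All 10 had a row, and all 10 were among the 15475 genes with enough counts to be tested.

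The study measured polyadenylated RNA of the hippocampus on postnatal day 14 after repeated blood draws (phlebotomy-induced anemia, PIA). Pups of both sexes were assigned at random to non-bled controls (NBC), which received a needle prick only, to moderate anemia (mPIA), bled toward a haematocrit of 25%, or to severe anemia (sPIA), bled toward 18%. Blood was drawn from postnatal day 3, at first 2 times daily (5.25 µl per g) and, after the goal was met, at 3.5 µl per g daily. Each of the 6 groups had 4 libraries, except NBC males with 3 (numbered 2, 3 and 4). The series text speaks of 4 males and 4 females per group; libraries are therefore taken to be different pups, and p-values measure the spread between these pups. No strain, genotype or age other than the day of death is given in the labels, and the haematocrit that each pup reached is not given.

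Most GLUT proteins and the MCT proteins move their substrates down a gradient without using ATP, MCT proteins together with a proton. The Slc2a13 product is a proton-coupled carrier of myo-inositol. In the brain, glucose crosses the capillary wall through GLUT1, the product of Slc2a1, which also sits on astrocytes, and enters neurons mainly through GLUT3, the product of Slc2a3. Lactate and ketone bodies, which fuel much of the suckling brain, pass through MCT1 (Slc16a1) in capillaries and glia, MCT4 (Slc16a3) in astrocytes and MCT2 (Slc16a7) in neurons. Slc2a1 and Slc16a3 are textbook targets of the hypoxia-inducible factors (HIF), which bind short DNA sites such as ACGTG, the only letters searched here.

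Library totals were 15.2 to 26.4 M counts (M for mega), and 44.4 M in mPIA female 3. The tissue was a mixture, so that fewer cells of a type and less RNA per cell cannot be told apart. Defining markers of neurons, astrocytes, microglia and endothelium were present in all 23 libraries. Markers of the choroid plexus, a tissue next to the hippocampus, varied most: their summed level reached 4728 CPM (a gene's count divided by its library's scaled total in M counts) in NBC males, where replicates 3 and 4 were high and replicate 2 had 21.7 CPM, against at most 168 CPM in sPIA males and 53.7 CPM in mPIA males. Among females it was 1419 CPM in sPIA female 2 and 2128 CPM in NBC female 2, against 23.01 to 265 CPM in the others. The library codes in the labels also followed the groups. All sPIA females, sPIA males and NBC males have codes that start with P, all mPIA males have codes that start with M, and mPIA and NBC females share the prefixes 86, 90 and 91. The codes end in an S and a number, which runs from 13 to 16 in sPIA males, from 17 to 20 in sPIA females, from 41 to 44 in mPIA males and from 38 to 40 in NBC males, and from 48 to 55 over mPIA and NBC females together. What the codes stand for is not given. In mPIA against NBC females both parts of the code are mixed between the groups. In sPIA against NBC males the letter P is shared but the S numbers differ, and in the other comparisons both parts differ, so there the anemia level and whatever the codes mark cannot be told apart.

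RefSeq sequences (GRCm38.p6) of the 250 bases before the gene start were found for 7 of the 10 genes, and none was found for Slc2a3, Slc2a4 and Slc16a7. They are printed for Slc16a1 and Slc16a3, the genes that rose in sPIA pups when both sexes were averaged, and for Slc2a8, 1 of the 3 that fell. Both others fell by more: Slc2a4, which had no sequence, and Slc2a5, whose window overlaps an annotated exon and is not printed. Capitals mark ACGTG or its reverse complement CACGT.
Slc16a1, chr3:104638414-104638663, plus strand: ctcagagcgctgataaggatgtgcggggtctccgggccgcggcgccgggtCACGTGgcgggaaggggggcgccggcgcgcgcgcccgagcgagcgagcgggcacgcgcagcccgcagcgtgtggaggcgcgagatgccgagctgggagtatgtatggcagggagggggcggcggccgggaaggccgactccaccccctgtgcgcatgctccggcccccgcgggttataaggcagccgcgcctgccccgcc
Slc16a3, chr11:120948817-120949066, plus strand: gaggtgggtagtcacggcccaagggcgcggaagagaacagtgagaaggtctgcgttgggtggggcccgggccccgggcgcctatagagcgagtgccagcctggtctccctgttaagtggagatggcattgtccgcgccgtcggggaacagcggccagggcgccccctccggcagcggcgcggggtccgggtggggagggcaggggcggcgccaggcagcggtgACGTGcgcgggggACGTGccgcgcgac
Slc2a8, chr2:32982084-32982333, minus strand: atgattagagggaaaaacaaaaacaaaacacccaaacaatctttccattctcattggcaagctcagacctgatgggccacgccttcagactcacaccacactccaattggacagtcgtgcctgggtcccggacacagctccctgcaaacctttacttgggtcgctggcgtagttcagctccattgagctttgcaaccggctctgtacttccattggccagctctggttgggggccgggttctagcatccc
In Slc16a1 the capitals form the palindrome CACGTG, which holds a match on each strand, starting 200 bases before the gene start. The Slc16a3 window held ACGTG 2 times, starting 27 and 14 bases before the RefSeq start. GENCODE M21 places the start of Slc16a3 at chr11:120948480, so this window lies inside the gene as annotated there. The Slc2a1 window held ACGTG once, starting 36 bases before the RefSeq start. That window ends at chr4:119108744, past the GENCODE start of Slc2a1 at chr4:119108711. No match to these letters was found in the windows of Slc2a5, Slc2a6, Slc2a8 and Slc2a13, and other forms of the HIF site were not searched. ACGTG on either strand was held by 20.6% of 14821 promoters of tested genes in a window of the same length, so 3 of 7 describes these letters only.

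The level of the 10 genes ranged widely. Per kilobase of exon (GENCODE M21), so that genes of different length can be compared, the mean level over 23 libraries was 33.7 CPM per kb for Slc16a1, 31.0 for Slc2a3 and 22.1 for Slc2a1. These are the MCT1, GLUT3 and GLUT1 genes. Slc2a13, which encodes the proton-coupled myo-inositol transporter HMIT, stood at 13.9 CPM per kb. Slc2a6, the gene of the lysosomal GLUT6, stood at 13.4 CPM per kb and Slc2a8, the gene of GLUT8, an intracellular glucose and fructose carrier, at 5.66. The low end was formed by Slc16a7 with 1.94 CPM per kb, Slc2a5, the gene of the fructose carrier GLUT5 known from gut and microglia, with 0.934, Slc2a4, the gene of the insulin-responsive GLUT4, with 0.579, and Slc16a3 with 0.476. Ranges over the libraries overlapped between most neighbours in this order, such as Slc2a13 (11.29 to 16.3 CPM per kb) and Slc2a6 (8.75 to 15.6). They did not overlap between Slc2a1 (16.8 to 29.0) and Slc2a13, nor between Slc2a6 and Slc2a8 (2.33 to 7.93). Exon length was the union over all annotated transcripts of a gene, and the order depends on this choice. In mean CPM without the length, Slc2a3 (224) stood above Slc16a1 (149), and Slc2a4 (2.01) stood below Slc16a3 (2.53).

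**Figure D1:**
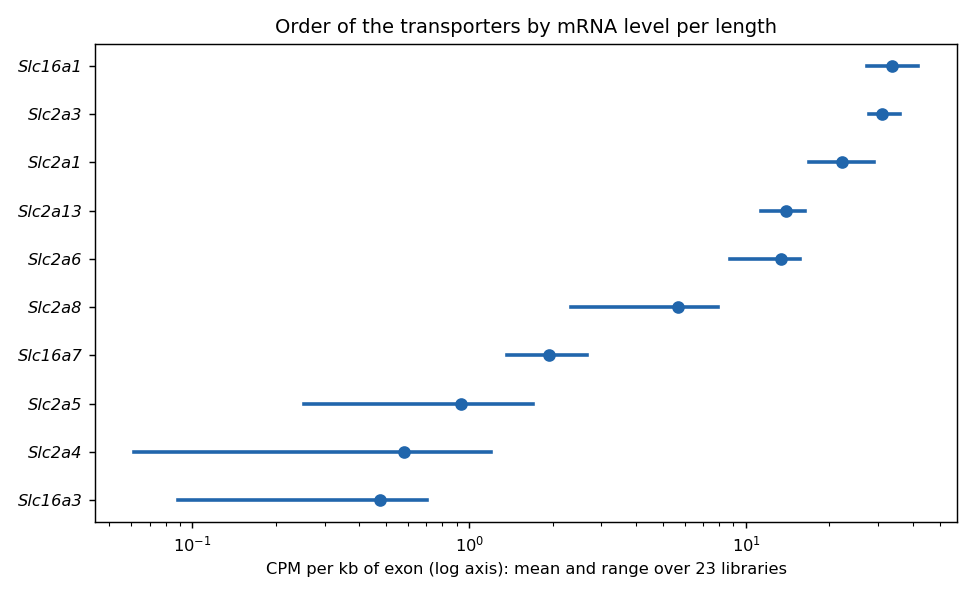
Mean mRNA level of each transporter gene per kilobase of exon (points) and its range over the 23 libraries (lines), on a log axis in CPM per kb. Slc16a1 (33.7) and Slc2a3 (31.0) stood highest, and Slc2a5, Slc2a4 and Slc16a3 lay below 1 CPM per kb on average with wide ranges.

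In severe anemia, Slc2a8 fell and Slc16a1 rose in females, while none of the 10 genes passed the threshold in sPIA males or in mPIA pups of either sex. In sPIA against NBC females these were 2 of 10 members, where 16% of all tested genes passed at an adjusted p under 0.05 in edgeR's quasi-likelihood test. The background in the other comparisons was 0.194% in sPIA against NBC males, 0.00646% in mPIA against NBC females and 0.653% in mPIA against NBC males, so a count of 0 members of 10 is near the background there. The male backgrounds depended on single controls: sPIA against NBC males gave 249 genes without NBC male 2 and 4 without NBC male 4, beside 30 with all libraries, and mPIA against NBC males gave 1124 and 0, beside 101. At an unadjusted p under 0.05, 4502 genes passed in sPIA females, 1880 in sPIA males, 55 in mPIA females and 2475 in mPIA males. The median log2 change of the 10 members was 0.03 in sPIA females, -0.02 in sPIA males, 0.03 in mPIA females and 0.12 in mPIA males, beside medians over all tested genes between -0.01 and 0.01. Groups did not overlap for 2 of 10 members in sPIA against NBC females (21% of all tested genes), for 2 in sPIA against NBC males (6.31%), for 0 in mPIA against NBC females (1.54%) and for 1 in mPIA against NBC males (9.8%). Between sPIA and mPIA they did not overlap for 3 members in females (24.3%) and for 3 in males (10.6%).

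**Figure D2:**
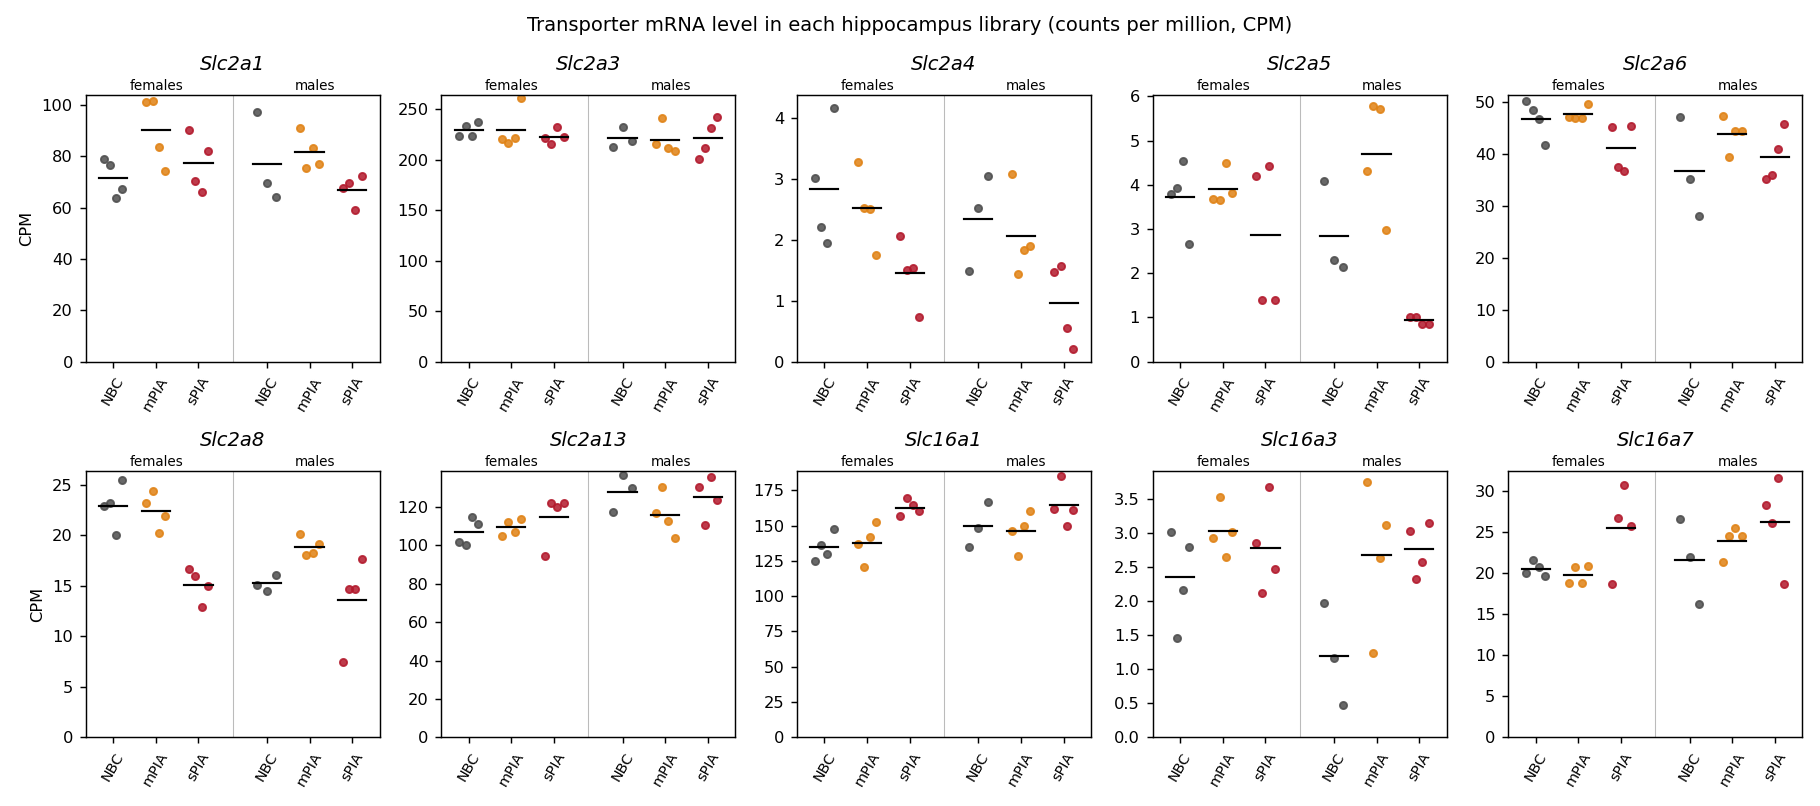
Level of each transporter gene in CPM (linear axes from 0) in every library, with females to the left and males to the right of the line in each panel, in the order NBC, mPIA, sPIA. Points are libraries and bars are group means; Slc2a8 in sPIA females (12.9 to 16.7 CPM) lay below both other female groups, and Slc2a5 in sPIA males (0.857 to 1.014 CPM) lay below both other male groups.

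Among the glucose carriers of the cell surface, Slc2a1 showed no change that passed. In females it lay at 79.0, 76.8, 64.0 and 67.3 CPM in NBC, at 101.3, 101.6, 83.8 and 74.4 CPM in mPIA and at 90.36, 70.5, 66.2 and 82.2 CPM in sPIA. The mPIA females reached the highest levels, but replicate 4 fell within the NBC range. The log2 change was 0.33 (SE 0.123) in mPIA against NBC females, with an unadjusted p of 0.0134, and did not pass after adjustment. These libraries share code prefixes, and within them Slc2a1 was higher in mPIA than in NBC at all 3 prefixes, by 0.38, 0.39 and 0.15 on the log2 scale (2 against 2 libraries at prefix 86, single libraries at 90 and 91). Slc16a3 also had higher means at all 3 prefixes, by 0.54, 0.30 and 0.11, but at prefix 86 mPIA female 1 (2.94 CPM) lay below NBC female 1 (3.01 CPM). All other members changed sign between prefixes. How many of all tested genes kept their sign was not counted. With the prefix as a block, in a fit of the mPIA and NBC females only, the log2 change of Slc2a1 was again 0.33 and passed (edgeR, adjusted p = 0.0282). In that fit 6 of 14680 tested genes passed. With the replicate number as a block in the fit of all 23 libraries, 0 genes passed in this comparison, so Slc2a1 did not. The summed level of 16 endothelial markers was 546 to 595 CPM in mPIA females and 513 to 553 CPM in NBC females, and its part in the Slc2a1 values was not tested.

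**Figure D3:**
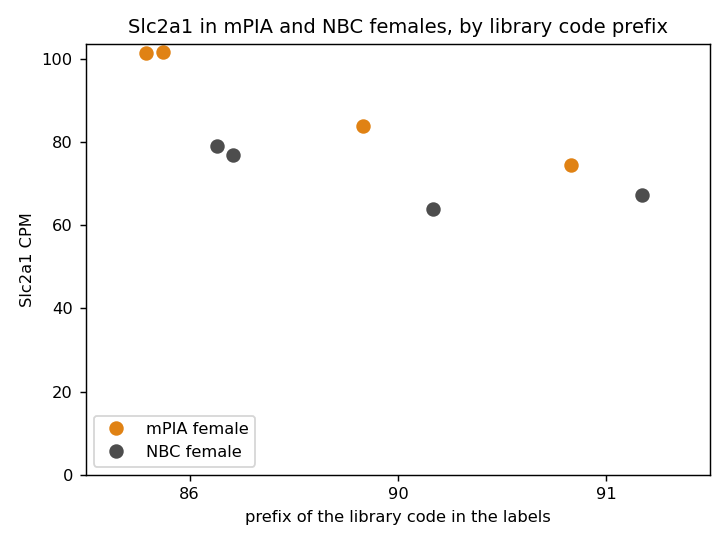
Slc2a1 level in CPM (linear axis from 0) in mPIA and NBC females, split by the prefix of the library code in the labels. At each prefix the mPIA libraries stood above the NBC libraries: 101.3 and 101.6 against 79.0 and 76.8 CPM at prefix 86, 83.8 against 64.0 CPM at 90, and 74.4 against 67.3 CPM at 91.

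In males Slc2a1 lay at 97.3, 69.7 and 64.3 CPM in NBC, at 90.9, 75.3, 83.4 and 76.9 CPM in mPIA and at 67.6, 69.5, 59.0 and 72.3 CPM in sPIA. All sPIA males lay below all mPIA males, while the NBC males spanned both groups. The log2 change of sPIA against mPIA males was -0.28 (SE 0.123) and did not pass (edgeR, adjusted p = 0.175). Some of its exon sequence, 105 bases, is shared with the antisense gene Gm12868, and since the strand setting of the counting is not given, reads there are uncertain.

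Slc2a3 was the steadiest member. Its level ranged from 201 to 261 CPM over all 23 libraries, and the groups overlapped in each comparison. The 95% interval of the log2 change was -0.18 to 0.09 in sPIA against NBC females, -0.14 to 0.15 in sPIA against NBC males, -0.13 to 0.14 in mPIA against NBC females and -0.16 to 0.13 in mPIA against NBC males.

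The insulin-responsive carrier gene Slc2a4 was rare. In females it lay at 3.01, 2.21, 1.95 and 4.17 CPM in NBC, at 3.28, 2.51, 2.504 and 1.75 CPM in mPIA and at 2.07, 1.498, 1.54 and 0.73 CPM in sPIA. In males it lay at 1.48, 2.52 and 3.04 CPM in NBC, at 3.08, 1.43, 1.84 and 1.89 CPM in mPIA and at 1.48, 1.57, 0.557 and 0.214 CPM in sPIA. The sPIA libraries included the lowest values of both sexes, and in each sex the highest sPIA library overlapped the lowest NBC library. The log2 change against NBC was -0.94 (SE 0.396, edgeR adjusted p = 0.107) in sPIA females and -1.28 (SE 0.434, adjusted p = 0.206) in sPIA males. It was -0.16 in mPIA females and -0.19 in mPIA males. Counts of this gene ranged from only 4 to 114 reads per library, which limits the precision.

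Slc2a5, the gene of the fructose carrier, differed most between severe and moderate anemia in males. In males it lay at 4.10, 2.30 and 2.15 CPM in NBC, at 4.32, 5.78, 5.72 and 2.98 CPM in mPIA and at 1.014, 1.012, 0.861 and 0.857 CPM in sPIA. The 4 sPIA males were the lowest of all 23 libraries and did not overlap with either other male group. Slc2a5 fell to 0.200-fold in sPIA against mPIA males (log2 change -2.32, SE 0.337, edgeR adjusted p = 0.000364) and was the only member of 10 that passed in that comparison, where 4.92% of tested genes did. By p-value it ranked 7 among the 15475 genes. It passed without each library in turn and under all 10 other settings tried, with log2 changes between -2.48 and -2.20. Against NBC males the log2 change was -1.59 (SE 0.362), the groups did not overlap, and the adjusted p of 0.0618 missed the threshold. This value passed with DESeq2 (adjusted p = 0.00776).

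In females Slc2a5 lay at 3.78, 3.94, 4.55 and 2.67 CPM in NBC, at 3.67, 3.66, 4.50 and 3.81 CPM in mPIA and at 4.19, 1.40, 4.43 and 1.40 CPM in sPIA. The sPIA females split, with replicates 1 and 3 among the controls and replicates 2 and 4 below all NBC and mPIA females. The log2 change was -0.39 (SE 0.309, edgeR adjusted p = 0.440), and the difference of the sPIA effect, females minus males, was 1.21 (SE 0.477, adjusted p = 0.197), which did not pass. The 8 microglial markers summed to 351 to 435 CPM in sPIA males, 346 to 385 CPM in mPIA males and 382 to 425 CPM in NBC males, and their part in the Slc2a5 values was not tested.

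The genes whose log2 CPM followed Slc2a5 most closely over the 23 libraries were Fbxo44, a ubiquitin ligase subunit (Pearson's r 0.88), Kcnab2, a potassium channel subunit (0.88), and Noc2l, a nucleolar protein (0.87), and all 3 lie on chromosome 4 near Slc2a5. Around the group means r was lower, at 0.54 for Fbxo44, 0.48 for Kcnab2 and 0.58 for Noc2l. Slc2a5 itself spans chr4:150119283-150144169 on the plus strand (GRCm38). Of the 30 most similar genes, 8 lay within 10 Mb of it, against 1.11% of the 12145 genes compared, and 10 lay on chromosome 4, against 6.17%. For the other 9 members, 0 to 2 of the 30 most similar genes lay within 10 Mb. The look at positions was chosen after the similar genes had been seen.

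The 3 genes were chosen for their likeness to Slc2a5, so their values in these libraries are a description with no test. Fbxo44 lay at 43.2, 34.0, 35.98 and 41.9 CPM in sPIA males, against 60.6 to 76.5 CPM in mPIA males and 60.2 to 66.4 CPM in NBC males. In sPIA females it lay at 70.7, 45.9, 61.6 and 51.7 CPM, so replicates 2 and 4 were again the lowest, against 73.8 to 80.6 CPM in mPIA females and 76.0 to 81.8 CPM in NBC females. Kcnab2 lay at 199.8 to 312 CPM in sPIA males, against 405 to 481 CPM in mPIA males and 327 to 374 CPM in NBC males, with no overlap. Noc2l lay at 51.7 to 71.3 CPM in sPIA males, against 84.7 to 89.5 CPM in mPIA males and 70.0 to 92.7 CPM in NBC males, so sPIA male 1 overlapped NBC male 3. Slc2a5 was also set out by the code prefixes that groups shared. P11 had 1.40 CPM in an sPIA female and 0.861 CPM in an sPIA male. P13 had 4.43 CPM in an sPIA female and 4.10 CPM in an NBC male. P14 had 1.40 CPM in an sPIA female, 0.857 CPM in an sPIA male and 2.30 CPM in an NBC male. Prefix 86 had 3.78 and 3.94 CPM in NBC females and 3.67 and 3.66 CPM in mPIA females. NBC and mPIA females had 4.55 and 4.50 CPM at prefix 90, and 2.67 and 3.81 CPM at prefix 91. What the prefixes stand for is not given, and the part of a shared stretch of chromosome 4 in the Slc2a5 values was not tested.

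**Figure D4:**
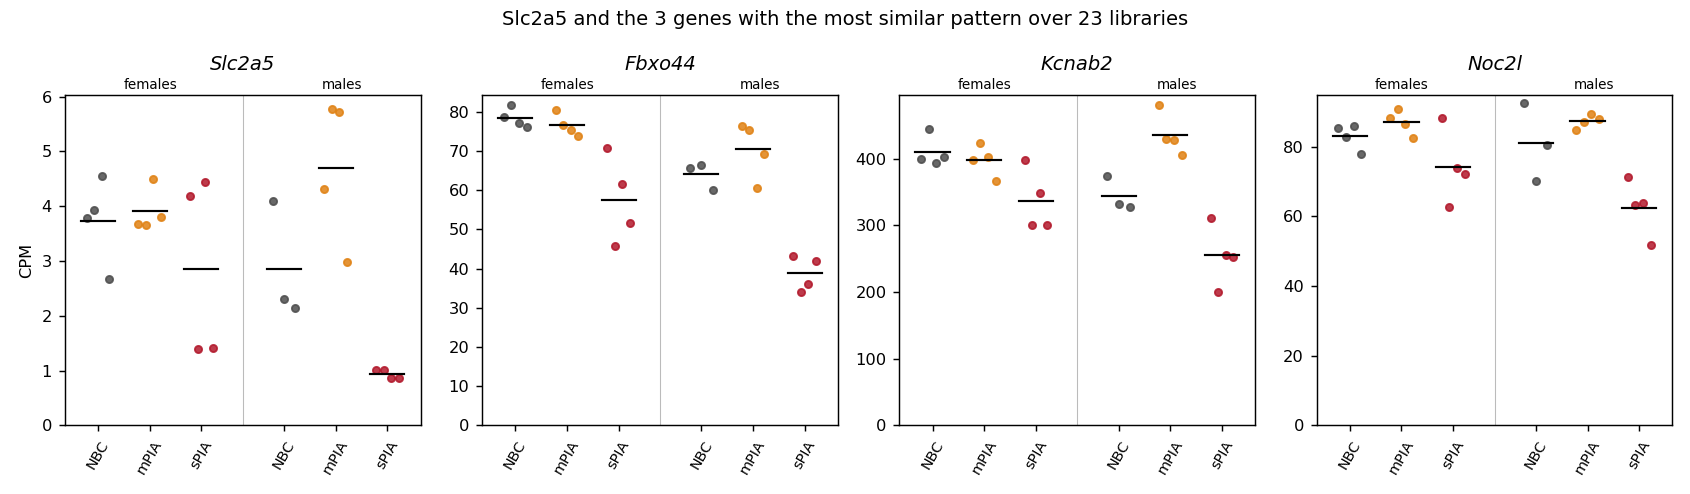
CPM (linear axes from 0) of Slc2a5 and the 3 genes with the most similar pattern, Fbxo44, Kcnab2 and Noc2l, in every library in the order NBC, mPIA, sPIA for females and males; bars are group means. The sPIA males lay at 0.857 to 1.014 CPM for Slc2a5 and 34.0 to 43.2 CPM for Fbxo44, below the other males, and the sPIA females spread widely.

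Among the carriers of internal membranes, Slc2a8 fell in sPIA females. It lay at 22.9, 23.2, 20.04 and 25.5 CPM in NBC, at 23.2, 24.4, 20.3 and 21.9 CPM in mPIA and at 16.7, 15.9, 12.9 and 14.99 CPM in sPIA. All 4 sPIA females lay below all NBC and mPIA females, which overlapped each other. Slc2a8 fell to 0.661-fold in sPIA against NBC females (log2 change -0.60, SE 0.151, edgeR adjusted p = 0.00774), and passed without each library in turn. It fell to 0.675-fold against mPIA females (log2 change -0.57, SE 0.15, adjusted p = 0.00971), a comparison in which 2 of 10 members and 16.1% of all tested genes passed.

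In males Slc2a8 lay at 15.1, 14.5 and 16.1 CPM in NBC, at 20.1, 18.0, 18.2 and 19.2 CPM in mPIA and at 7.47, 14.7, 14.7 and 17.6 CPM in sPIA. The sPIA males lay below all mPIA males and overlapped the NBC males, with replicate 1 the lowest library of all. The log2 change was -0.17 (SE 0.164, edgeR adjusted p = 0.733) in sPIA against NBC males and -0.47 (SE 0.151, adjusted p = 0.0629) in sPIA against mPIA males. The sPIA effect differed between the sexes, females minus males, by -0.43 on the log2 scale (SE 0.223, adjusted p = 0.335), and by -0.64 without sPIA male 1, which then passed (adjusted p = 0.028). Between mPIA and NBC males the groups did not overlap, with mPIA higher (log2 change 0.31, SE 0.162, adjusted p = 0.349). Over both sexes the gene divided by library code: the 11 libraries with codes that start with P lay at 7.47 to 17.6 CPM, and the other 12 at 18.0 to 25.5 CPM, so the sPIA effect in females and the code series cannot be told apart. In the males of the P series the sPIA effect was the -0.17 given above.

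Slc2a8 is also among the genes richest in G and C, at percentile 96.8 of transcript GC content among tested genes, and the libraries differed in how level depended on GC content. Across genes, Spearman's rho of GC content with the departure of a library from the all-library mean ran from -0.44 to 0.03 in sPIA females, against 0.18 to 0.55 in NBC females. With the GC and length trend of each library removed, the log2 change of Slc2a8 was -0.39 in sPIA against NBC females (edgeR adjusted p = 0.0797) and -0.37 against mPIA females (adjusted p = 0.0878), and neither passed. The most similar genes to Slc2a8 were Abtb1, Pcnxl3 and Slc22a17 (Pearson's r 0.92 to 0.94 over 23 libraries, which share depth and GC dependence).

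Slc2a6, the gene of the lysosomal carrier GLUT6, ranged from 36.8 to 45.5 CPM among sPIA females, 47.0 to 49.7 CPM among mPIA females and 41.8 to 50.2 CPM among NBC females. The sPIA females lay below all mPIA females, but the log2 change of -0.21 did not pass (edgeR adjusted p = 0.212). In males the range was 35.3 to 45.8 CPM for sPIA, 39.5 to 47.3 CPM for mPIA and 28.1 to 47.2 CPM for NBC. In mPIA against NBC males the log2 change was 0.25 (adjusted p = 0.306), and it was 0.45 and passed (adjusted p = 0.0177) only without NBC male 2, the highest control. Slc2a13, the myo-inositol carrier, ranged from 94.5 to 136 CPM over all libraries. None of its changes passed, and the log2 changes against NBC lay between -0.14 and 0.10.

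Slc16a1, the lactate and ketone body carrier MCT1, rose in sPIA females. In females it lay at 125, 136, 130 and 148 CPM in NBC, at 137, 120, 142 and 152 CPM in mPIA and at 157, 169, 164 and 161 CPM in sPIA. The 4 sPIA females lay above all 8 other females. They have P codes and the other females do not, so the rise and the library codes cannot be told apart. Over both sexes the median was 161 CPM in libraries with P codes and 139 CPM in the others. Slc16a1 rose 1.21-fold in sPIA against NBC females (log2 change 0.27, SE 0.0792, edgeR adjusted p = 0.0191) and 1.18-fold against mPIA females (log2 change 0.24, SE 0.079, adjusted p = 0.0379). The first call was lost without NBC female 1 (log2 change 0.24, adjusted p = 0.0715). The second was lost without mPIA female 1 (adjusted p = 0.0783), 2 (0.139) or 3 (0.0514), and without sPIA female 2 (0.0808), 3 (0.0727) or 4 (0.0542), with log2 changes of 0.19 to 0.30 over all libraries left out.

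In males Slc16a1 lay at 135, 148 and 167 CPM in NBC, at 146, 129, 150 and 160 CPM in mPIA and at 161, 185, 150 and 161 CPM in sPIA. The groups overlapped, and the log2 change of sPIA against NBC males was 0.13 (SE 0.0853, edgeR adjusted p = 0.561). The difference of the sPIA effect, females minus males, was 0.14 (SE 0.116, adjusted p = 0.590), so the sexes were not shown to differ. Slc16a1 lies at percentile 15.52 of GC content, and with the GC and length trend removed the log2 change in sPIA females was 0.16 against NBC (adjusted p = 0.153) and 0.13 against mPIA (adjusted p = 0.272). Of 16 markers of the endothelium, which carries MCT1, 5 rose and 1 fell in sPIA against NBC females, where 16% of all tested genes passed, with a median log2 change of 0.21, and their sum was 572 to 645 CPM in sPIA females and 513 to 553 CPM in NBC females. Of 8 astrocyte markers 3 rose and 0 fell, and their sum was 6113 to 7291 CPM in sPIA females and 5577 to 5724 CPM in NBC females. The part of either cell type in the rise was not tested.

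Slc16a3, the lactate exporter MCT4, was the rarest member per length. In males it lay at 1.97, 1.17 and 0.471 CPM in NBC, at 3.75, 1.25, 2.63 and 3.12 CPM in mPIA and at 3.04, 2.33, 2.58 and 3.16 CPM in sPIA. All sPIA males lay above all NBC males, and mPIA male 2 was the single bled male in the control range. The log2 change was 1.197 (SE 0.363, edgeR adjusted p = 0.156) in sPIA against NBC males and 1.15 (SE 0.362, adjusted p = 0.114) in mPIA against NBC males, and neither passed. Without NBC male 2, both passed (1.70 with adjusted p = 0.0281, and 1.64 with adjusted p = 0.0136), which leaves as controls the 2 libraries with the highest choroid plexus markers.

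In females Slc16a3 lay at 3.01, 1.46, 2.17 and 2.799 CPM in NBC, at 2.94, 3.54, 2.66 and 3.02 CPM in mPIA and at 2.86, 2.13, 3.69 and 2.47 CPM in sPIA. The female groups overlapped, with log2 changes of 0.25 (edgeR adjusted p = 0.665) in sPIA and 0.36 (SE 0.317) in mPIA against NBC. The NBC males were thus the group that stood apart, and the sPIA effect in females minus that in males was -0.95 (SE 0.481, adjusted p = 0.322).

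Slc16a7, the high-affinity neuronal carrier MCT2, lay in females at 20.04, 21.6, 20.7 and 19.6 CPM in NBC, at 18.8, 20.7, 18.8 and 20.9 CPM in mPIA and at 18.6, 26.7, 30.7 and 25.8 CPM in sPIA. In sPIA females 3 of 4 libraries stood above all other females and replicate 1 was the lowest. In males it lay at 26.5, 21.96 and 16.2 CPM in NBC, at 21.3, 24.4, 25.4 and 24.5 CPM in mPIA and at 28.3, 26.1, 31.6 and 18.6 CPM in sPIA. The log2 change was 0.31 (SE 0.145, edgeR adjusted p = 0.151) in sPIA against NBC females and 0.28 (SE 0.156, adjusted p = 0.486) in sPIA against NBC males. Without sPIA female 1 the female value was 0.44 and passed (adjusted p = 0.0313), as it did against mPIA females (0.49, adjusted p = 0.016, beside 0.37 and 0.0848 with that library). With the GC and length trend removed the value against NBC females was 0.04 (adjusted p = 0.906). Slc16a7 has the lowest GC content of the members, at percentile 1.75, and shares 179 exon bases with Gm47862 on the opposite strand.

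Averaged over both sexes, 5 of 10 members passed in sPIA against NBC, where 11.7% of tested genes did, and 0 of 10 passed in mPIA against NBC, where 0.0194% did and 1288 genes had an unadjusted p under 0.05. Slc2a4 fell to 0.463-fold (log2 change -1.11, SE 0.294, edgeR adjusted p = 0.0153) and Slc2a5 to 0.504-fold (log2 change -0.99, SE 0.238, adjusted p = 0.00848). Slc2a8 fell to 0.768-fold (log2 change -0.38, SE 0.111, adjusted p = 0.0261). Among the lactate carriers Slc16a1 rose 1.15-fold (log2 change 0.20, SE 0.0583, adjusted p = 0.0241) and Slc16a3 rose 1.65-fold (log2 change 0.72, SE 0.241, adjusted p = 0.0488). For Slc16a7 the log2 change of 0.30 (SE 0.107) did not pass (adjusted p = 0.0705).

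The calls that held most widely were Slc2a5, which passed under all 26 alternatives tried, and Slc2a4. Slc2a4 passed under all but the removal of NBC males 3 and 4 together (log2 change -0.78). None of these alternatives separates the anemia level from the library codes. The Slc2a5 mean joined log2 changes of -1.59 in males and -0.39 in females (edgeR adjusted p = 0.0618 and 0.440). With GC and length removed, Slc2a4 (-1.02, adjusted p = 0.0373), Slc2a5 (-0.91, adjusted p = 0.0229) and Slc16a3 (0.83, adjusted p = 0.033) passed, while Slc2a8 (-0.24, adjusted p = 0.169) and Slc16a1 (0.13, adjusted p = 0.139) did not. Slc2a8 was lost with only the compared groups fitted (adjusted p = 0.0765), without NBC male 4 (adjusted p = 0.0514), sPIA female 3 (0.0582) or NBC males 3 and 4 together (0.116), and Slc16a1 without NBC male 2 (0.0687), NBC female 1 (0.0558) or sPIA male 2 (0.0532). The Slc16a3 call held in only 3 of 15 fits that left out 1 library and in 6 of 11 other settings, with log2 changes of 0.55 (without NBC male 4, adjusted p = 0.115) to 0.98 (without NBC male 2, adjusted p = 0.0128) when 1 library was left out, and without NBC males 3 and 4 its log2 change was 0.37 (adjusted p = 0.413). Slc16a7 passed without NBC male 2 (0.38, adjusted p = 0.0237), sPIA male 4 (0.36, adjusted p = 0.0134) or sPIA female 1 (0.36, adjusted p = 0.0169) and in 2 of 11 other settings, and its log2 change was 0.13 (adjusted p = 0.466) with GC and length removed.

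**Figure D5:**
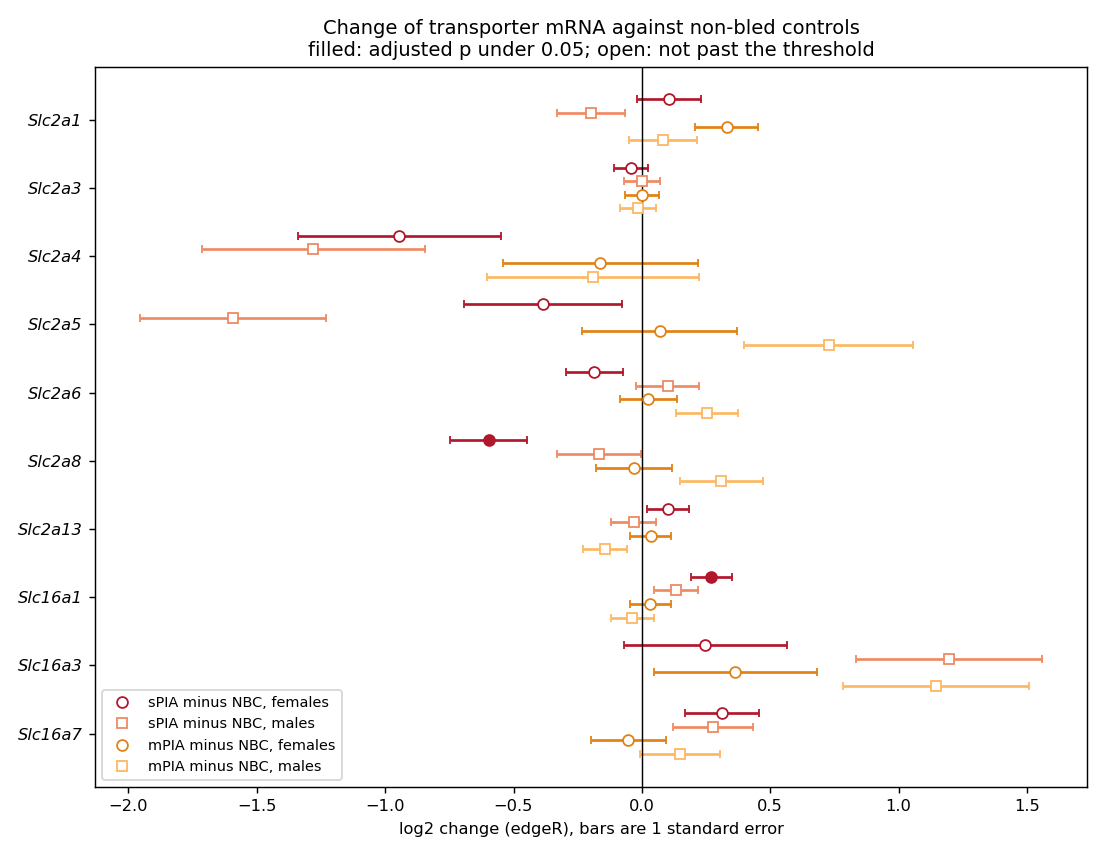
log2 change of each transporter gene against NBC (edgeR; bars are 1 standard error), for sPIA and mPIA in females (circles) and males (squares); filled symbols passed at an adjusted p under 0.05. Slc2a8 and Slc16a1 in sPIA females are the filled ones, Slc2a4 lay at or below -0.94 in sPIA of both sexes, and Slc2a3 stayed within 0.05 of 0 in all 4 comparisons.

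None of the 10 members passed the test of a sex difference in the anemia effect, where 0.95% of tested genes passed for sPIA and 0% for mPIA. For mPIA 1103 genes had an unadjusted p under 0.05. The estimates for sPIA, females minus males, ranged from -0.95 for Slc16a3 to 1.21 for Slc2a5. Codes that start with P cover the NBC males but not the NBC females, so sex and the codes cannot be told apart in these estimates.

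Related carriers, partners and enzymes gave a further view of the pathway. Of 20 other carriers of the SLC2, SLC16 and SLC5 families, 15 were tested. In sPIA against NBC females, where 16% of all tested genes passed, 1 rose and 0 fell: Slc5a3, the gene of a sodium-coupled myo-inositol carrier, by 0.48 on the log2 scale (SE 0.113, edgeR adjusted p = 0.00483). It averaged 31.1 ± 2.35 CPM in sPIA females and 22.3 ± 2.06 CPM in NBC females (SD, n = 4 each). In males it averaged 30.5 ± 3.31 CPM in sPIA (SD, n = 4) and 35.0 ± 3.12 CPM in NBC (SD, n = 3). The effect in females minus that in males was 0.67 (SE 0.164, edgeR adjusted p = 0.0441), a call that held in 6 of 15 fits that left out 1 library. All sPIA pups and NBC males have P codes and NBC females do not, so sex and the codes cannot be told apart in that difference. Without P codes, mPIA females averaged 21.7 CPM and mPIA males 25.3 CPM. In mPIA against NBC males Slc2a12, the gene of the glucose carrier GLUT12, passed as lower, with a log2 change of -1.87 (SE 0.397, adjusted p = 0.0342). Slc2a12 lay at 4.02 to 4.47 CPM in mPIA males and 4.00 to 27.5 CPM in NBC males. Without NBC males 3 and 4, the male libraries with high choroid plexus markers, the log2 change was 0.07 and did not pass. The call was also lost without NBC male 3 alone (-1.91, adjusted p = 0.074) or NBC male 4 alone (-1.18, adjusted p = 0.275).

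Of 11 partners and regulators of transporter surface level, 3 rose and 1 fell in sPIA against NBC females, beside 16% of all tested genes, and the median log2 change of the list was 0.16. Lnpep, an aminopeptidase that travels in GLUT4 vesicles, rose by 0.49 (SE 0.0883, edgeR adjusted p = 0.000553). Its sPIA effect in females minus that in males was 0.62 (SE 0.129, edgeR adjusted p = 0.0227). Lnpep averaged 74.8 CPM in sPIA females, 69.7 CPM in sPIA males and 76.3 CPM in NBC males, all with P codes. The means were 53.4 CPM in NBC females, 52.7 CPM in mPIA females and 65.2 CPM in mPIA males. The rise and the sex difference thus cannot be told apart from the codes. Nptn, a subunit that chaperones MCT proteins, rose by 0.16, against -0.03 with the GC and length trend removed, and Snx27, which recycles carriers to the surface, rose by 0.16. Gipc1, an adaptor that binds the GLUT1 tail, fell by 0.30 (SE 0.0865, adjusted p = 0.0186). With GC and length removed Gipc1 had a log2 change of -0.05 (adjusted p = 0.736) and Snx27 of 0.12 (adjusted p = 0.159), and neither passed. Of the 8 fits that left out 1 library, the Lnpep call held in 8, Nptn in 5, Gipc1 in 4 and Snx27 in 1. Bsg, the chaperone of MCT1 and MCT4, was not among the genes that passed in any of the comparisons. In sPIA against mPIA males Vps35, a retromer subunit, rose by 0.23 and Gipc1 fell by 0.29, where 4.92% of tested genes passed. The Vps35 call held in 4 of 8 fits that left out 1 library and 8 of 10 other settings, and the Gipc1 call in 2 of 8 and 2 of 10.

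Of 27 genes of the first steps of glucose, fructose and lactate use, 25 were tested, and in sPIA against NBC females 1 rose and 2 fell, a share of 25 no higher than the 16% of all tested genes that passed. Ldhb, the lactate dehydrogenase subunit that favours pyruvate formation, fell by 0.27 (SE 0.0703, edgeR adjusted p = 0.00855). It averaged 206 ± 10.3 CPM in sPIA females, 249 ± 10.1 CPM in mPIA females and 248 ± 7.97 CPM in NBC females (SD, n = 4 each). G6pc3, a glucose-6-phosphatase, fell by 0.31 and Pygb, the brain glycogen phosphorylase, rose by 0.21. Of the 8 fits that left out 1 library, the Ldhb call held in 8, G6pc3 in 4 and Pygb in 3. In sPIA against mPIA males Ldhb fell by 0.34 (SE 0.0702, adjusted p = 0.00787) and Pygb rose by 0.25 (adjusted p = 0.0438). The Pygb call held in 0 of 8 fits that left out 1 library (adjusted p 0.0533 to 0.103) and the Ldhb call in 8. Averaged over both sexes, 4 fell in sPIA against NBC and 0 rose, where 11.7% of tested genes passed: Ldhb by 0.26 (adjusted p = 0.00195), G6pc3 by 0.26, Pygm, the muscle glycogen phosphorylase also found in astrocytes, by 0.35 and Pdk4, a kinase that switches off pyruvate dehydrogenase, by 0.34 (adjusted p = 0.0429). The Pdk4 call held in 5 of 15 fits that left out 1 library and the other 3 in all 15. With GC and length removed, Ldhb in sPIA against NBC females had a log2 change of -0.14 (adjusted p = 0.265), Slc5a3 of 0.30 (adjusted p = 0.0850) and G6pc3 of -0.11 (adjusted p = 0.474), and none passed. Pygm over both sexes had -0.26 (adjusted p = 0.0781) in that setting. Lnpep passed under all 10 alternatives other than leaving out a library, none of which separates the anemia level from the library codes.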

How the data were processed

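Polyadenylated RNA of mouse hippocampus was sequenced in 23 libraries of 6 groups. The authors' deposited values are raw counts per gene, whole numbers with unequal library totals. The submitters' processing notes name FastQC, TopHat2 (2.0.13), Subread, edgeR and build mm10, without saying what each did; which annotation and strand setting served for counting is not given in these sources. Column names gave the sample of each column, and 0 columns were left without one. Of 24421 rows, 23350 matched a GENCODE M21 symbol, which gave positions (GRCm38), exon length and GC content.

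Counts were tested with edgeR's quasi-likelihood test (edgeR 4.0.16 in R 4.3.3, robust, TMM), with all 23 libraries and 6 group means in a single fit, after filterByExpr (minimum count 10, minimum total 15), which left 15475 genes. Benjamini-Hochberg adjustment was applied to p-values within each comparison at 0.05, over all tested genes. CPM used TMM-scaled library sizes, and log2 CPM a prior count of 2. The standard error and the 95% interval are of the log2 change. All members are named in each comparison, and of each companion list up to 4 genes past the threshold by smallest p, except that 1 result is not reported here. Similar genes were the 3 with the highest Pearson correlation of log2 CPM among genes averaging at least 1 on the log2 CPM scale. The members and lists were chosen with earlier results of these data known.

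Over 33 pairs of replicates chi-square divided by its degrees of freedom was 3.09 to 31.3, above sampling noise, so none was counted as a copy. Alternatives used DESeq2 1.42.0 and limma 3.58.1 (voom), other normalization factors and filters, the replicate number or code prefix as a block, the choroid plexus markers as a covariate, removal of a GC and length trend, and leaving out libraries. The test was checked on simulated counts. Python 3.11.15 and matplotlib 3.10.9 were used for tables and figures.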

Additional observations from a re-analysis of the deposited data

Results flagged for a closer look

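Among the 50 sets of 4 libraries formed by a gene and a group, 3 held a library far from the other 3, with a gap above 0.829 of the whole range, and chance alone gives this in about 1 in 20 such sets. Slc2a3 lay at 261 CPM in mPIA female 4, and the nearest other mPIA female lay at 222 CPM. Slc2a6 lay at 49.7 CPM in the same library, and the nearest other mPIA female at 47.2 CPM. Slc2a13 lay at 94.5 CPM in sPIA female 1, and the nearest other sPIA female at 120 CPM. None of these genes had a call in a comparison with these groups, and NBC males, with 3 libraries, were not looked at in this way.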

How the results depend on the processing

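Over the 10 members and 10 comparisons, 2071 of 2130 values under an alternative stayed on their side of the threshold, 38 lost a call, 21 gained a call and 0 reversed a call. Of the 2071, 119 had the other sign, none of them called. Among the companion genes, 4 values reversed: Nptn with the GC and length trend removed (-0.028 in sPIA against NBC females, -0.00435 in sPIA against mPIA females and -0.0021 for sPIA against NBC over both sexes), and Slc2a12 in mPIA against NBC males without NBC males 3 and 4 (0.0715). The removal of NBC males 3 and 4 together was chosen after seeing the data. The number of members past the threshold in sPIA against NBC was 0 in females with GC and length removed, and at most 3 in settings that kept all libraries. In males it was 1 with no low-count filter, with DESeq2, with the replicate block and with the choroid plexus covariate, each time Slc2a5. It was 1 for mPIA against NBC females with the code prefix as a block. For sPIA against mPIA it was 0 in females with GC and length removed, and 2 in males with DESeq2 and with limma-voom. Over both sexes it was 3 in sPIA against NBC with only the compared groups fitted and 3 with GC and length removed. It reached at most 6 among the settings other than leaving out 1 library, beside 5 in the main fit. Leaving out 1 library gave 1 to 3 members in sPIA against NBC females, 0 to 1 in males, 0 in mPIA against NBC females, 0 to 2 in males, 1 to 3 in sPIA against mPIA females and 1 to 2 in males. It gave 3 to 5 for sPIA and 0 to 1 for mPIA against NBC over both sexes, 0 to 1 for the sex difference in sPIA and 0 in mPIA.

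Deviations of samples with the same replicate number correlated by 0.04 to 0.15 in mPIA and NBC females, where each sample correlated best with its own number and the numbers follow the code prefixes, and by -0.08 to 0.09 in the other comparisons. Not every pair passed 0.1, so the numbers were not taken to pair the pups. With the replicate block 42 of all genes passed in sPIA against NBC males and 43 in mPIA against NBC males, beside 30 and 101 without it. The sPIA against NBC counts over all genes were 2472 in females, 1220 with GC and length removed, and 30 in males, 155 with DESeq2 and 6 with only those groups fitted. Leaving out 1 library gave 4 to 249 in sPIA against NBC males, 0 to 1124 in mPIA against NBC males and 230 (without mPIA male 1) to 1340 (without sPIA male 4) in sPIA against mPIA males, beside 762. In mPIA against NBC males 101 genes passed, 381 with DESeq2, 24 with limma-voom and 0 with the choroid plexus covariate or only those groups fitted. Slc2a4, Slc2a5 and Slc16a3, with 4 to 205 reads per library, are limited by depth.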
